A study of Rattus norvegicus with 8 samples.

Results

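The data described here are the mRNA levels of 10 G protein gamma subunit genes, Gng2, Gng3, Gng4, Gng5, Gng7, Gng8, Gng10, Gng11, Gng12 and Gng13, in the dentate gyrus (DG) of rats that went through status epilepticus (SE) with or without estradiol. The members were chosen by name: every non-control spot of the microarray whose gene name was one of these 10 entered, which gave 15 spots, 1 per probe, of 43379 and 10 genes of 35250 gene names. All 15 spots were valid in all 8 rats, so the 10 genes stand among 20825 genes that could be quantified in every rat. A valid spot was one whose foreground reached 2 times the background around it. No member spot was saturated or marked as an outlier by the scanner software.

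All 8 rats were adult female Sprague-Dawley rats of 150 to 200 g that had been ovariectomized (OVX) and given kainic acid at 16 mg/kg, an agonist of glutamate receptors that sets off seizures. SE was ended with pentobarbital after 5 h. The 4 COS rats received oil and the 4 CES rats received 4 injections of 2 μg estradiol (E2) at intervals of 24 h, 2 of them before SE and 2 after it. The study's methods describe another kainic acid dose, another drug to end SE and all injections before SE, and these accounts could not be reconciled here. Rats without SE were not analysed here, so no value below compares SE with its absence.

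A heterotrimeric G protein carries the signal of a receptor from the membrane to the inside of the cell. Its alpha subunit binds GTP, and its beta and gamma subunits stay together as a single unit that, once released, opens potassium channels, holds back presynaptic calcium channels and acts on phospholipases and adenylyl cyclases. The gamma subunit is the small partner: a lipid (prenyl) group on its tail anchors the pair to the membrane, and the choice among the gamma genes differs between cell types. In the hippocampus, receptors for GABA, adenosine, acetylcholine and neuropeptide Y use these subunits to dampen firing and transmitter release.

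The gamma genes resemble each other within the coding sequence, so the probes of 3 genes that moved are printed to show how far their letters can be told apart. All are 60 bases long and are written 5′ to 3′ as in the scanner files. Capitals in the Gng3 probe mark bases shared with the Gng4 probe at the best ungapped alignment, capitals in the Gng4 probe mark those shared with Gng3, and capitals in the Gng12 probe mark those shared with Gng4.
Gng3: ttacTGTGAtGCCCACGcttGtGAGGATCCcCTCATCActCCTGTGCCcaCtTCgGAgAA
Gng4: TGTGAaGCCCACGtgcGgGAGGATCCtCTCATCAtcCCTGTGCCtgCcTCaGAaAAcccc
Gng12: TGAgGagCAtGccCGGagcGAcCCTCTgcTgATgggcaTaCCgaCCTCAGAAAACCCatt
The files place the Gng3 probe at chr1:211508348-211508407 on the minus strand of the rn4 build, the Gng4 probe at chr17:66535473-66535532 on the minus strand and the Gng12 probe at chr4:96624037-96624096 on the plus strand. Gng3 and Gng4 shared 43 of 56 overlapping bases (76.8%), more than any other pair of member probes. Gng4 and Gng12 shared 36 of 58 bases (62.1%), and these genes differed in opposite directions below. All other pairs shared at most 58.3% of the overlapping bases. Probes were compared only with each other, so whether a probe matches the RNA of another gene was not tested.

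Each level below is the signal of a gene divided by the median signal of valid spots in the same channel, on the log2 scale, and a difference is CES minus COS with its standard error from limma. Levels are compared between rats for 1 gene, never between genes, since probes differ in how brightly they bind. Over all 20825 genes the median difference was -0.25, so a shift common to the array is part of each difference. Each array held 2 rats of the same group, replicates 1 and 3 labeled with Cy3 and replicates 2 and 4 with Cy5, and all arrays lay on 1 slide. The valid spots made up 70.7% to 88.9% of the spots in a rat. CES replicate 2 stood apart from its group: over all genes its levels correlated at 0.97 to 0.98 with the COS rats and at 0.95 to 0.96 with the other CES rats. COS replicate 2 stood apart in the choroid plexus markers, whose summed level was 7.27 in that rat and 4.39 to 4.74 in the other COS rats. Granule cell markers of the DG were measured in all rats, among them Calb1 and C1ql2, whereas Prox1 was not valid in every rat. Nothing in the labels says how many litters or dissection days the rats came from. A p-value here sets a difference against the spread between these rats, which includes that of labeling and array. Since no array held rats of both groups, a difference between groups cannot be told apart from one between arrays.

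The gamma genes did not move as a block. Gng3, Gng4 and Gng8 were higher in CES than in COS, Gng5, Gng11 and Gng12 were lower, and Gng2, Gng7, Gng10 and Gng13 did not pass the test. Thus 3 of 10 members were called higher, where 5.74% of all genes were, and 3 of 10 were called lower, where 28.6% of all genes were, so that 6 of 10 were called against 34.3% of the array. The share called lower was near that of the whole array. The split of the whole array depended on the scaling, with 1195 genes higher and 5957 lower as given and 2999 higher and 1943 lower after loess within arrays. Set against the median gene of the array, 7 of the 10 members were shifted upward. Within each group the SD of a member ran from 0.22 to 0.64, and it was larger in CES than in COS for all 10 genes. The share of all genes with a larger SD in CES was not computed. Since CES replicate 2 stood apart from its group over all genes, the count is not read as a trait of the members.

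**Figure D1:**
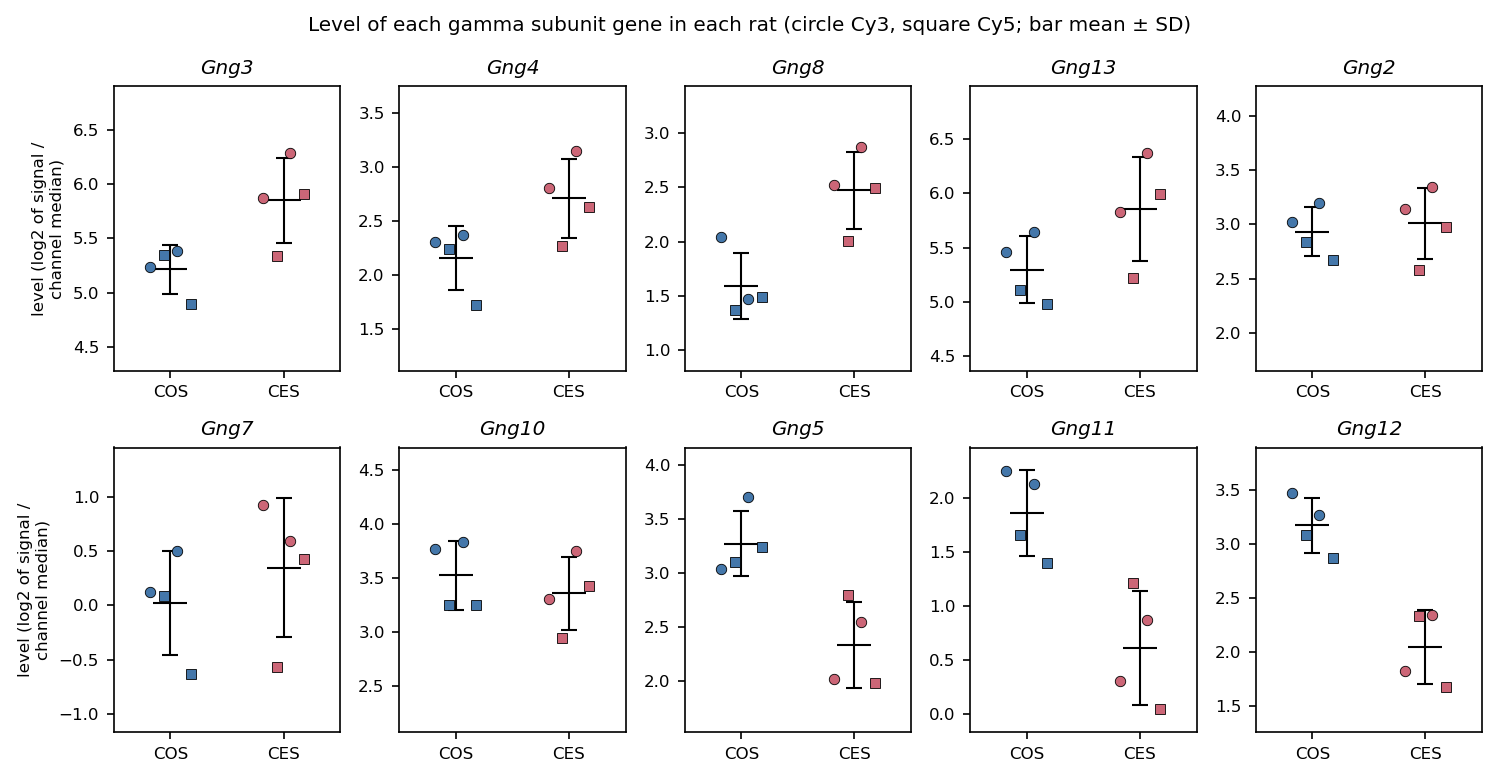
Level of each gamma subunit gene in each rat, as log2 of the signal over the channel median; all panels span the same range, circles are Cy3 and squares Cy5, and bars give the mean and SD of 4 rats. The CES rats lie below all COS rats for Gng5, Gng11 and Gng12, and for the other 7 genes the groups overlap, with CES replicate 2, the lower-lying square, closest to the COS rats in Gng3, Gng4 and Gng8.

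Gng8, known from olfactory and vomeronasal neurons, had the largest rise among the members. Its level was 2.05, 1.37, 1.47 and 1.48 in COS replicates 1 to 4 and 2.52, 2.00, 2.87 and 2.50 in CES replicates 1 to 4. The groups met only where COS replicate 1 exceeded CES replicate 2. The COS mean was 1.59 ± 0.31 and the CES mean 2.47 ± 0.36 (SD, n = 4 rats each). The difference was 0.88 with a standard error of 0.20, a 1.84-fold higher signal (95% interval 0.45 to 1.32 on the log2 scale, adjusted p = 0.00916 by limma). The call was lost without COS replicate 3, where the difference was 0.75 with an adjusted p of 0.0607. Its probe lies at chr1:77223199-77223258 of rn4, plus strand.

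Gng3, a gamma subunit of neurons, was 5.24, 5.35, 5.38 and 4.89 in COS replicates 1 to 4. In CES replicates 1 to 4 it was 5.87, 5.34, 6.29 and 5.91. All CES rats but replicate 2 lay above every COS rat. The difference was 0.64 with a standard error of 0.20, or 1.56-fold (95% interval 0.19 to 1.09, adjusted p = 0.0341 by limma). The margin was narrow: with the replicate number as a block the adjusted p was 0.0521, and of the 8 fits that left out 1 rat only 2 kept the call, with 0.76 when COS replicate 2 was left out (adjusted p = 0.0332) and 0.78 when CES replicate 2 was (adjusted p = 0.00826). In the other 6, without COS replicate 1, 3 or 4 or CES replicate 1, 3 or 4, the difference ran from 0.48 to 0.68 and the adjusted p from 0.0537 to 0.115.

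Gng4, a gamma subunit found mainly in brain, was 2.30, 2.25, 2.37 and 1.72 in COS replicates 1 to 4 and 2.80, 2.27, 3.14 and 2.63 in CES replicates 1 to 4. Again only CES replicate 2 lay within the range of the COS rats. The difference was 0.55 with a standard error of 0.18, or 1.47-fold (95% interval 0.14 to 0.96, adjusted p = 0.0427 by limma). With the replicate block the adjusted p was 0.0625. The call held when COS replicate 2 was left out (0.67, adjusted p = 0.0336) or CES replicate 2 was (0.64, adjusted p = 0.0211). Without COS replicate 1, 3 or 4 or CES replicate 1, 3 or 4 it was lost, with differences of 0.43 to 0.59 and adjusted p of 0.0618 to 0.131. Since its probe shares most bases with that of Gng3, the identity of the signal is uncertain to that extent, and binding of the RNA of 1 gene to the probe of the other was not tested.

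Gng13, which works with the taste and retinal signalling machinery and is also found in brain, had a rise of like size that did not pass. Its level was 5.46, 5.11, 5.65 and 4.98 in COS replicates 1 to 4. It was 5.83, 5.22, 6.38 and 6.00 in CES replicates 1 to 4, again with CES replicate 2 within the COS range. The difference was 0.56 with a standard error of 0.21 (95% interval 0.09 to 1.03, adjusted p = 0.0630 by limma). Without CES replicate 2 it was 0.72 and passed, with an adjusted p of 0.0143. After loess normalization within arrays it was 0.83 and passed as well (adjusted p = 0.0241).

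The genes that were lower in CES are expressed widely rather than in neurons alone. Gng11, one of the few gamma subunits that carry a farnesyl instead of a geranylgeranyl group, was 2.25, 1.66, 2.13 and 1.40 in COS replicates 1 to 4 and 0.31, 1.21, 0.88 and 0.05 in CES replicates 1 to 4. All CES rats were below all COS rats. The difference was -1.25 with a standard error of 0.27, a 2.37-fold lower signal (95% interval -1.86 to -0.64, adjusted p = 0.00879 by limma). The call was lost without COS replicate 3 (-1.18, adjusted p = 0.0779).

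Gng12, which is found in many tissues, was 3.47, 3.08, 3.27 and 2.87 in COS replicates 1 to 4. In CES replicates 1 to 4 it was 1.83, 2.34, 2.34 and 1.68, again below every COS rat. The difference was -1.13 with a standard error of 0.21, or 2.18-fold lower (95% interval -1.58 to -0.67, adjusted p = 0.00486 by limma). It was called in each of the 8 fits that left out 1 rat, with differences of -1.29 to -0.98, and the largest adjusted p among them was 0.0495, without COS replicate 3.

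Gng5, expressed in dividing neural progenitors and in many other cells, was 3.04, 3.10, 3.70 and 3.25 in COS replicates 1 to 4 and 2.02, 2.79, 2.54 and 1.99 in CES replicates 1 to 4. Here too the groups did not overlap. The difference was -0.94 with a standard error of 0.24, or 1.92-fold lower (95% interval -1.47 to -0.41, adjusted p = 0.0151 by limma). Leaving out COS replicate 3 ended the call (-0.78, adjusted p = 0.101), as did leaving out CES replicate 1 (-0.78, adjusted p = 0.0714). The reference annotation lists 5 Gng5 pseudogenes, whose RNA these probes might also bind, so the identity of this signal is uncertain to that extent.

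The groups did not overlap for 3 of 10 members, Gng5, Gng11 and Gng12, all with CES below, and 19.7% of all genes lay that way. No member had every CES rat above every COS rat, as 1.55% of all genes did, and 21.2% of the genes were free of overlap in 1 direction or the other. Among all genes, 2.73% had a higher difference than Gng8, 5.41% a higher one than Gng3, and 6.59% a lower one than Gng11.

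The remaining members showed small differences within the spread of the rats. Gng10, which is found in nearly all tissues, ran from 3.25 to 3.83 in COS and from 2.94 to 3.75 in CES, with a difference of -0.17 and a standard error of 0.18 (95% interval -0.57 to 0.23, adjusted p = 0.497 by limma). Its sign depended on the scaling: after loess it was 0.16, and its distance from the array median was 0.09. The reference lists 1 Gng10 pseudogene. Gng7, the striatal partner of the olfactory-type alpha subunit, ran from -0.64 to 0.51 in COS and from -0.57 to 0.92 in CES, with a difference of 0.33 and a standard error of 0.25 (95% interval -0.24 to 0.89, adjusted p = 0.348 by limma). Neither interval excludes a change of the size seen in Gng4, downward for Gng10 and upward for Gng7.

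**Figure D2:**
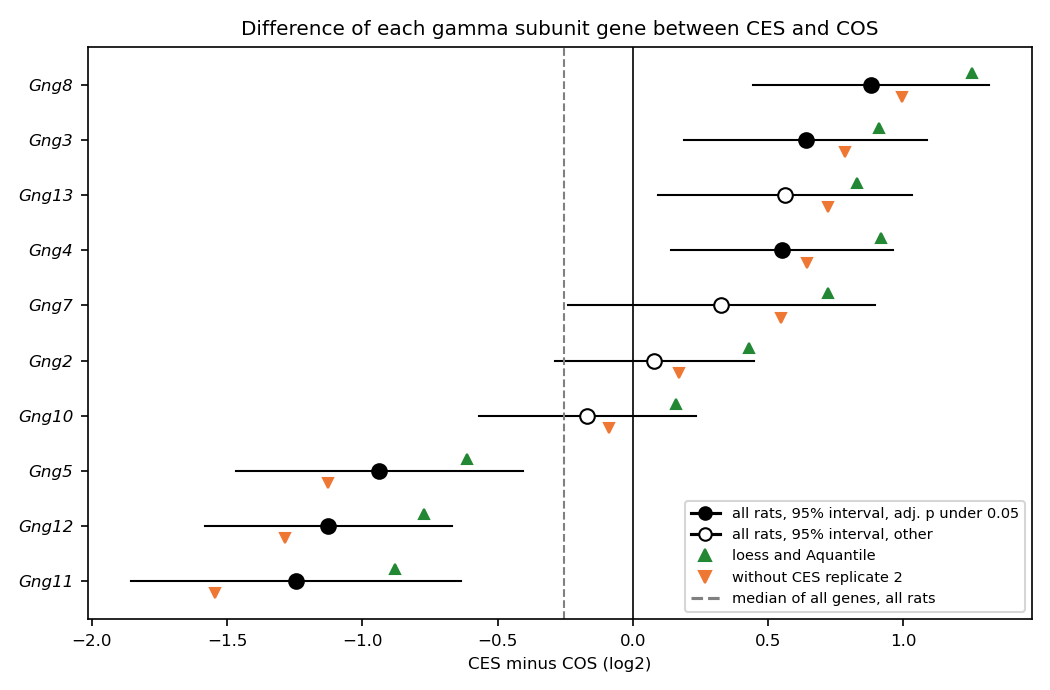
Difference between CES and COS for each member, log2 scale, with all rats (circle, filled where the adjusted p was under 0.05, line for the 95% interval), after loess and Aquantile normalization (triangle up) and without CES replicate 2 (triangle down); the dashed line is the median of all genes, -0.25. The other scaling moves all 10 genes to the right, from -1.25 to -0.88 for Gng11 and from 0.88 to 1.25 for Gng8, while leaving out CES replicate 2 widens the differences of the 6 called genes.

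Because another scaling moved every gene in 1 direction, the members were also set against each other within each rat, where any factor common to a channel cancels and only the change between rats is read. The mean level of Gng3, Gng4 and Gng8 minus that of Gng5, Gng11 and Gng12 was 0.27, 0.37, 0.04 and 0.19 in COS replicates 1 to 4. It was 2.35, 1.09, 2.18 and 2.44 in CES replicates 1 to 4. The group means were 0.22 ± 0.14 and 2.01 ± 0.63 (SD, n = 4 each), a shift of 1.79, and without CES replicate 2 the CES mean was 2.32. These genes were sorted by their own calls, so the shift describes the size and bears no test. The lowest CES rat, replicate 2, was also above every COS rat, which that sorting favoured, so it adds no support.

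With the scaling changed to loess within arrays and Aquantile between them, the median difference of all genes moved from -0.25 to 0.05. Gng3, Gng4, Gng8 and Gng13 were then called higher (0.91, 0.92, 1.25 and 0.83, with adjusted p of 0.0203, 0.0166, 0.0194 and 0.0241 by limma). Of the lower genes Gng12 alone was still called (-0.77, adjusted p = 0.0333), whereas Gng11 was at -0.88 (adjusted p = 0.0684) and Gng5 at -0.61 (adjusted p = 0.0953). With normexp background correction no member was called, where 5 members had an unadjusted p under 0.05. With the methods' t-test, adjusted here over all genes, none was called either, again with 5 members at an unadjusted p under 0.05. The study's own calling rule, which adds a fold-change cut-off for each gene, was not applied. Over the 22 alternatives all 6 called members kept their direction.

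The difference was also computed within each label, from 2 CES and 2 COS rats, and its sign was the same in Cy3 and Cy5 for all 10 members. For Gng8 it was 0.94 in Cy3 and 0.82 in Cy5, and for Gng3 it was 0.77 and 0.50. For Gng12 it was -1.28 and -0.97, and for Gng11 it was -1.60 and -0.90. With 2 rats per group and label these values have no test of their own.

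Of the 10 genes, 4 had more than 1 probe, and for Gng5, Gng11 and Gng12 the probes gave like differences. In Gng5 the probe starting at base 165 of the transcript record differed by -0.93 (adjusted p = 0.0168, limma over 24861 probes) and the one at base 1110 by -1.11 (adjusted p = 0.00411). The probe at base 1110 was well above background in 4 of the COS and 3 of the CES rats, with a lowest foreground of 3.96 times background. In Gng11 the probe at base 543 differed by -1.27 (adjusted p = 0.00887) and the one at base 1619 by -1.05 (adjusted p = 0.00636). The latter was dim, and the software marked it as well above background in 3 of the COS and 2 of the CES rats. In Gng12 the probe at base 265 differed by -1.14 (adjusted p = 0.00575) and the one at base 2516 by -1.09 (adjusted p = 0.00352).

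Gng2, a gamma subunit abundant in brain, was different. As a gene it was 3.03, 2.84, 3.20 and 2.67 in COS replicates 1 to 4 and 3.15, 2.58, 3.35 and 2.98 in CES replicates 1 to 4, a difference of 0.08 with a standard error of 0.16 (95% interval -0.29 to 0.45, adjusted p = 0.737 by limma). That value averages 3 probes that moved apart. The probe at base 2846 of the record was 2.45, 2.29, 2.82 and 2.24 in COS and 3.44, 2.59, 3.63 and 3.32 in CES, a difference of 0.80 with a standard error of 0.20 (adjusted p = 0.0134, limma over all probes). Only CES replicate 2 lay below a COS rat. The probe at base 175 differed by -0.20 (adjusted p = 0.375) and the one at base 1099 by -0.31 (adjusted p = 0.136). Among single probes 5.46% were called higher and 29.4% lower. The call of the probe at base 2846 was lost without COS replicate 1 (0.70, adjusted p = 0.0554), COS replicate 3 (0.85, adjusted p = 0.0597) or CES replicate 1 (0.80, adjusted p = 0.0518), and with normexp background correction (0.88, adjusted p = 0.172).

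**Figure D3:**
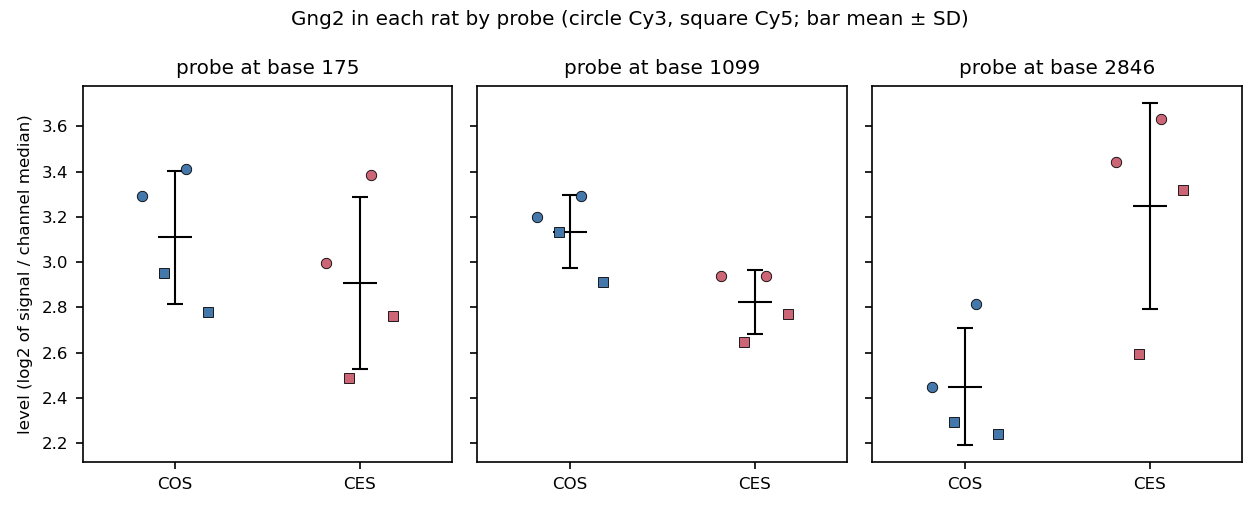
Level of Gng2 in each rat at each of its 3 probes, named by the first base in the transcript record, as log2 of the signal over the channel median; circles are Cy3 and squares Cy5, and bars give the mean and SD of 4 rats. At base 2846 the CES rats are higher except replicate 2 at 2.59, while at bases 175 and 1099 the CES means lie slightly below the COS means.

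The disagreement was measured inside each rat as the level at base 2846 minus that at base 175. It was -0.85, -0.66, -0.60 and -0.54 in COS replicates 1 to 4 and 0.45, 0.11, 0.25 and 0.56 in CES replicates 1 to 4, with no overlap. The group means differed by 1.00 (exact two-sided permutation test over the rats, p = 0.0286, and 0.114 after adjustment over the 4 genes with several probes). The unadjusted p is the smallest possible when single rats are shuffled freely. This test and the permutation tests below took no account of dye or array. Rats on the same array always shared a group, so these p-values cannot tell group from array. Shuffling of whole arrays was not done. The last minus first probe changed by -0.19 in Gng5 (exact permutation p = 0.457), by 0.21 in Gng11 (exact permutation p = 0.257) and by 0.05 in Gng12 (exact permutation p = 0.800). Over 1856 transcript records with probes at least 500 bases apart, the median of the same change was 0.08, and 5.82% of the records had a change larger in size than that of Gng2. The files give no genome position for the Gng2 probes, and which transcript forms each probe reads was not tested.

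A gamma subunit works only with a beta subunit, and of the 5 beta genes 2 were lower in CES and 0 higher. Gnb4 was 2.35, 1.67, 2.24 and 1.78 in COS and 0.35, 1.20, 0.93 and 0.54 in CES, a difference of -1.25 with a standard error of 0.24 (adjusted p = 0.00527 by limma). Gnb1, the most widely used partner, was 3.95, 3.79, 4.15 and 3.73 in COS and 2.94, 3.37, 3.18 and 2.84 in CES, a difference of -0.82 with a standard error of 0.18 (adjusted p = 0.00893). For both, every CES rat was below every COS rat. The others gave -0.18 for Gnb2 (adjusted p = 0.405), -0.29 for Gnb3 (adjusted p = 0.336), a dim gene that 2 rats of each group showed well above background, and 0.12 for Gnb5 (adjusted p = 0.642), the beta subunit that pairs with RGS proteins in neurons. The 2 of 5 called lower stand against 28.6% of all genes, and the median difference of the 5, -0.29, was close to that of all genes, -0.25. After loess 0 of the 5 was called in either direction.

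Of the alpha subunits 14 of 15 were on the array and 10 were quantified, of which 1 was higher and 1 lower. Gna14, an alpha subunit of the Gq class, rose by 1.17 with a standard error of 0.22 (adjusted p = 0.00510 by limma), and Gnai2, which inhibits adenylyl cyclase, fell by 0.78 with a standard error of 0.18 (adjusted p = 0.0110). The median of the 10 was -0.23, and over all genes 5.74% were called higher and 28.6% lower. After loess 1 of the 10 was called higher and 0 lower, so the call of Gnai2 was lost. Of the 3 other gamma genes looked for (Gngt1, Gngt2 and Gng14), 1 was on the array, Gngt1, and it was not valid in every rat.

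Gamma subunits become functional after prenylation and trimming of their tail. Of 6 such enzymes 4 were lower in CES and 0 higher, where 28.6% of all genes were lower and 5.74% higher. Their median difference was -0.66 against -0.25 for all genes. The largest fall was that of Rce1, the protease that removes the last residues after prenylation, by 0.87 with a standard error of 0.19 (adjusted p = 0.00817 by limma). After loess 1 of the 6 was called lower, where 1943 of 20825 genes were. Of the 3 quantified chaperones of G protein assembly 2 were lower, against the same 28.6% of all genes. The largest fall was in Ric8b (-0.99, standard error 0.21, adjusted p = 0.00757 by limma). It is also a dim gene, well above background in 3 of the COS rats and 1 of the CES rats. After loess 1 of the 3 chaperones was lower.

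Targets of the beta-gamma pair were called in both directions. Over all 20825 genes 5.74% were called higher and 28.6% lower, and after loess 2999 genes were higher and 1943 lower. Kcnj6, a subunit of the GIRK potassium channels that the pair opens, was 1.89, 1.33, 2.25 and 1.68 in COS and 3.34, 2.11, 3.55 and 3.12 in CES. It rose by 1.24 with a standard error of 0.23 (adjusted p = 0.00529 by limma), and again only CES replicate 2 overlapped with COS. It was the 1 of 4 GIRK genes called, and the median of the 4 was 0.05. After loess 2 of the 4 were called higher. Of 11 quantified other effectors and binding partners 4 were higher and 3 lower, with a median of 0.01, and after loess 4 were higher and 1 lower. Among those called higher without loess was Grk3 (0.78), a dim gene well above background in 0 of the COS rats and 2 of the CES rats. The largest rise was that of Cacna1b, the pore of the N-type calcium channel that the pair inhibits, by 1.08 with a standard error of 0.19 (adjusted p = 0.00473). The largest fall was that of Adcy4, an adenylyl cyclase that the pair stimulates, by 2.08 with a standard error of 0.36 (adjusted p = 0.00440), and it was well above background in all 4 COS rats and 2 of the CES rats. Of the 4 RGS proteins that carry a gamma-like domain and so bind Gnb5 in place of a gamma subunit, 1 was lower, Rgs7 (-0.67, standard error 0.17, adjusted p = 0.0151), and after loess 0 of the 4 was called. Leaving out CES replicate 2 left the counts of the beta, GIRK, chaperone and other effector genes as they were, and gave 5 of 6 prenylation enzymes lower, 2 of 4 of these RGS genes lower and 1 alpha gene higher with 2 lower.

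**Figure D4:**
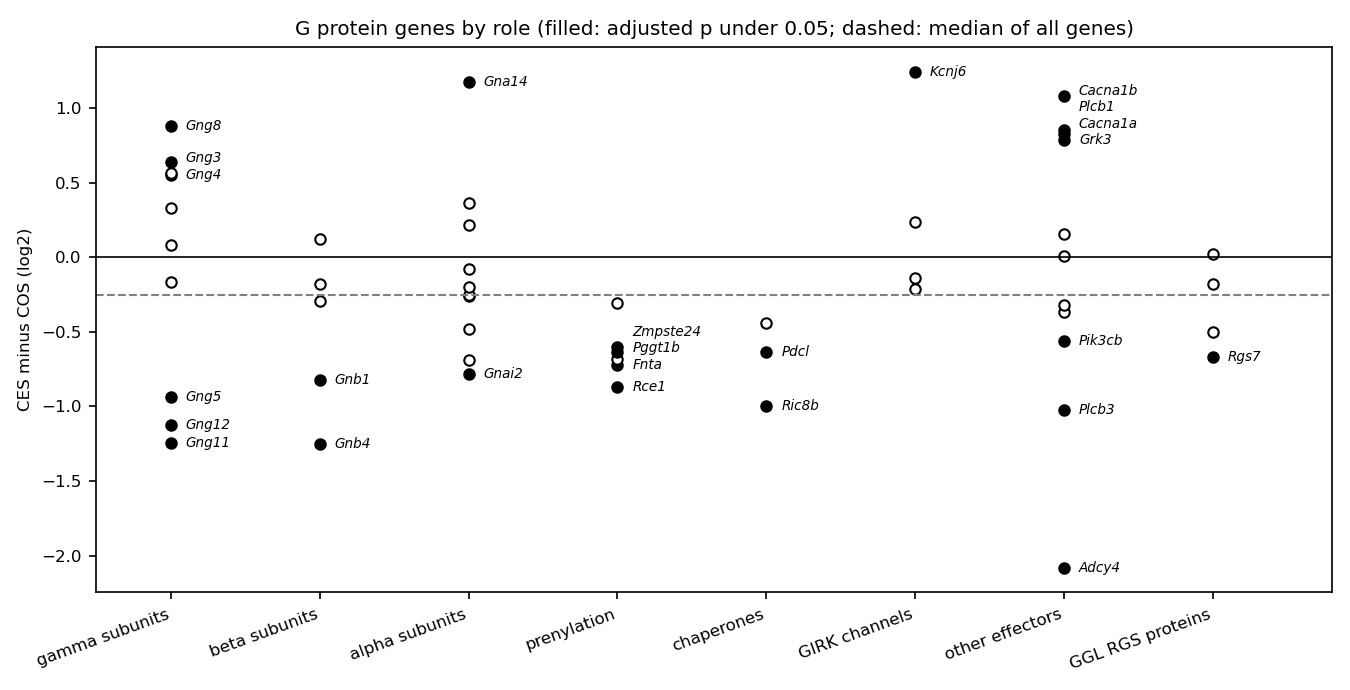
Difference between CES and COS, log2 scale, of the gamma subunit genes and of the genes that build, modify or answer to the beta-gamma pair, 1 column per role; filled circles have an adjusted p under 0.05 and are named, and the dashed line is the median of all genes, -0.25. Called genes lie on both sides in the gamma, alpha and other effector columns, and over all columns they run from 1.24 for Kcnj6 to -2.08 for Adcy4.

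In tissue of mixed cells, fewer cells of a type and less RNA per cell cannot be told apart, so the markers of the cell types are given beside the members. Endothelial markers, 5 of 7 lower and 0 higher, had a median difference of -1.04, and their summed level ran from 5.65 to 6.28 in COS and from 4.40 to 5.67 in CES. Of these 7, Cldn5 (-0.25, adjusted p = 0.278 by limma) and Cdh5 (-0.50, adjusted p = 0.0733) were not called. After loess 2 of the 7 were lower, with a median of -0.75. Microglia and macrophage markers, 5 of 10 lower and 1 higher, had a median of -0.68, and their summed level ran from 7.52 to 8.08 in COS and from 6.13 to 7.22 in CES. After loess 1 of the 10 was lower and 1 higher, with a median of -0.39. These shares called lower are read against the 28.6% of all genes. In this list Cd68 fell by 2.19 (adjusted p = 0.0043 by limma), and Itgam, Csf1r, C1qa and C1qb were called lower too. P2ry12 rose by 0.93 (adjusted p = 0.00783 by limma). Of the microglial list, Aif1, Cx3cr1, Tmem119 and Ptprc were not called. The granule cell and interneuron lists below also had medians under that of all genes (-0.42 and -0.58). Gng5, Gng11, Gng12 and Gnb4 fell too, and the part of any of these cells in their difference was not tested.

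Neuronal markers, 2 of 7 higher and 1 lower, had a median of 0.34, and their summed level ran from 8.85 to 9.21 in COS and from 8.89 to 9.35 in CES. Stmn2 rose by 0.79 and Nefl fell by 0.82 among them. After loess 4 of the 7 were higher and 1 lower. Granule cell markers, 3 of 6 lower and 0 higher, had a median of -0.42 and summed levels of 4.30 to 5.29 in COS and 4.32 to 5.07 in CES, and after loess 1 of the 6 was lower, with a median of -0.18. The 3 called without loess were C1ql2, Dsp and Tdo2. Of these, Tdo2 was well above background in 0 rats of either group, and Dsp in 3 COS and 2 CES rats. Calb1 (-0.28), C1ql3 (0.17) and Plk5 (0.52) were not called. Interneuron markers, 2 of 5 lower and 0 higher, had a median of -0.58, with the lower calls in Sst (-1.61) and Npy (-1.91). Gad1 (-0.57) and Gad2 (-0.58) were not called, nor was Pvalb, which went the other way (0.51, adjusted p = 0.0714 by limma). After loess 1 of the 5 was higher and 2 were lower. Astrocyte markers, 3 of 8 higher and 1 lower, had a median of 0.14, and oligodendrocyte markers, 1 of 7 higher, a median of 0.23. After loess 2 astrocyte markers were higher and 0 lower, and 0 oligodendrocyte markers were called. Of the choroid plexus (6 quantified) and red cell (2 quantified) markers none was called. The shares called in these lists are read against 5.74% of all genes called higher and 28.6% called lower. The part of these cells in the rise of Gng3, Gng4 and Gng8 was not tested.

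The stretch of 300 bases around the gene start (250 before it and 50 after) was searched on both strands for 3 binding motifs in RefSeq promoters of the GRCr8 build, which held 9 of the 10 members. The AP-1 motif of the Fos and Jun factors, spelled TGANTCA, was in 1 of the 9 member promoters, that of Gng12, and in 7.33% of 33469 promoters. As the only match among the members, it is shown in capitals within a stretch of 27 bases at chr4:97365892-97365918 on the plus strand. The first base of the motif lies 59 bases before the gene start.
Gng12 promoter: cagaaagaaaTGACTCAtgctggaaaa
The cAMP motif TGACGTCA was in none of the 9, against 1.83% of all promoters, and the full palindrome of the estrogen response element was in none, against 0.027%. A match describes these letters and nothing of binding.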

How the data were processed

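Total RNA of the DG was measured on 4 2-colour Agilent rat arrays on 1 slide, each with 2 rats of the same group. Per the labels, images were read with Agilent Feature Extraction 10.7.3.1. The authors deposited, per channel, the mean and median intensity of each spot, its background and a processed intensity, none of them normalized between arrays. The authors also deposited log2 values, which equal, for 100% of the listed spots in each of the 8 columns, the log2 of the median signal minus background, centred on the column median. No further column was left unused for lack of a sample.

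A spot was valid at a foreground of at least 2 times background, as in the study's methods. The mean signal minus background median was scaled to the median over valid spots of its channel, and averaged over the spots of a gene valid in all 8 rats. Spots marked as outliers in any channel (1593) were left out. Probes took the RefSeq symbol where their accession matched (17512 of 41012), and otherwise the name in the files.

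The comparison of CES with COS used limma (version 3.58.1, under R 4.3.3) with dye as a fixed term and array as a random block (statmod 1.5.0, correlation -0.01). It was two-sided, p-values were adjusted by Benjamini-Hochberg across every quantified gene, and the threshold was 0.05. The median standard error over all genes was 0.20 on the log2 scale, and the number of arrays limits this precision. The fit was also run on simulated data with normal noise and no shift common to the array, unlike these data, so that run bears on no call above. Tables were joined with pandas 2.3.3 on numpy 2.4.6 (Python 3.11.15) and the R package data.table (1.17.8), exact tests were run in scipy 1.17.1 and plots drawn in matplotlib 3.10.9. The member genes, the gene lists and the tests were chosen with earlier results of these data known, so no count over a list is an independent test. Named singly are the 10 members, the beta subunits, the called genes with the largest rise and fall of each other pathway list, Grk3 for its dim signal, and single markers of the cell type lists. Rats with the same replicate number deviated together (correlations of 0.33, 0.21, 0.31 and 0.35 for numbers 1 to 4), yet they also shared a dye, and with the dye removed the correlations were -0.06 and -0.04. The fit with the replicate number as a block is therefore given as an alternative.

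Alternatives were normexp (offset 50), the processed intensity, loess with Aquantile, quantile normalization, scaling over the 26294 commonly valid spots, no filter, a foreground of 3 times background, spots well above background, omission of the array block or of the dye term, a replicate block, the brightest probe, the methods' t-test, the deposited log2 values, and each rat left out. The methods' t-test was adjusted by Benjamini-Hochberg over all genes and took no fold-change cut-off, unlike the study's own rule. The alternatives on single probes and on the gene lists were added after seeing the data.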

Additional observations from a re-analysis of the deposited data

Results flagged for a closer look

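One value stood far from its group. Gng8 in COS replicate 1 was 2.05 (log2 of the signal over the channel median), against 1.37, 1.47 and 1.48 in the other COS rats, and its gap to the nearest of them was 0.833 of the whole range of the group, above Dixon's 95% critical value for 4 samples. Of 20 groups of 4 rats looked at (10 genes in COS and in CES) it was the only one, and chance flags about 1 in 20 groups. Without this rat the difference of Gng8 was 0.98 (adjusted p = 0.0224 by limma), against 0.88 with it.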

How the results depend on the processing

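Over 22 alternatives, 8 of them leaving out a rat, Gng3, Gng4, Gng5, Gng7, Gng8, Gng11, Gng12 and Gng13 kept the sign of their difference in each. They were called in 12 (Gng3), 11 (Gng4), 13 (Gng5), 0 (Gng7), 19 (Gng8), 15 (Gng11), 20 (Gng12) and 7 (Gng13) of the 22. The adjusted p over the alternatives ran from 0.00219 to 0.146 for Gng8, from 0.00826 to 0.225 for Gng3, from 0.0166 to 0.368 for Gng4, from 0.00210 to 0.363 for Gng5, from 0.00017 to 0.193 for Gng11, from 0.000445 to 0.172 for Gng12 and from 0.0143 to 0.304 for Gng13. The sign turned for Gng2 with the brightest probe (-0.20) and without CES replicate 3 (-0.01) or 4 (-0.019). It turned for Gng10 after loess (0.16), quantile normalization (0.15), scaling over the commonly valid spots (0.23) and in the deposited log2 table (0.20). None of these values was called.

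Against 3 members called higher and 3 lower, and 1195 genes higher and 5957 lower, normexp gave 0 and 0 (139 and 492 genes). The methods' t-test, adjusted over all genes, gave 0 and 0 (0 and 0 genes, with 5909 genes at an unadjusted p under 0.05). The lower calls among the members came to 1 after loess (2999 and 1943 genes), quantile normalization (3023 and 2257 genes), scaling over the commonly valid spots (3384 and 1783 genes) and in the deposited log2 table (3213 and 1927 genes). Without a filter 1 member was called higher (434 and 2975 genes), and at a foreground of 3 times background 2811 genes were lower. Leaving out each rat gave 0 to 4 members higher, 1 to 3 lower, 285 to 1812 genes higher and 1142 to 6954 lower, the fewest each time without COS replicate 3. With the replicate block 1 member was higher, and it changed no call other than those of Gng3 and Gng4. Of the single probes, those of Gng2 at base 175 and base 1099 turned to 0.15 and 0.042 after loess and to 0.20 and 0.088 with scaling over the commonly valid spots, and that of Gng10 to 0.16 and 0.23. The cause was not tested. Signal over background limited the Gng11 probe at base 1619, with a lowest foreground of 2.47 times background.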
